A study of Mus musculus with 2 samples.

Results

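The genes described here are 10 core genes of the actin cytoskeleton: the cytoplasmic actins Actb and Actg1, the monomer-binding proteins Tmsb4x, Tmsb10 and Pfn1, the severing protein Cfl1, the tropomyosins Tpm1, Tpm3 and Tpm4, and the capping protein subunit Capzb. They were listed by name with no threshold on a measured value, and all 10 matched a row among 42462 named gene rows, with 80 transcript rows between them. The data were polyA-selected RNA-seq of the mouse line G1E-ER4, an immortalized erythroid line from a male mouse that lacks working Gata1 of its own and carries Gata1 fused to the ligand-binding domain of an estrogen receptor. There was 1 group of 2 libraries, both of cells given 10 nM 17beta-estradiol for 7 hours, which starts erythroid differentiation. The labels number them as biological replicates 1 and 2 but tie both to 1 sample record. Nothing says that they came from separate cultures, and their spread could be technical. No untreated sample was part of the comparison, so no change with estradiol was measured, and with 1 group no p-value was computed. All cells were of 1 line with 1 restored Gata1 construct.

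Actin filaments grow from a pool of actin monomers. Beta-thymosins hold monomers in reserve, profilin hands them to growing filament ends, capping protein closes those ends, cofilin severs and disassembles old filaments, and tropomyosins coat filaments and decide which other proteins reach them. In red cells, short actin filaments bound by tropomyosin join the spectrin network under the membrane.

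The libraries held 59610969 and 44689405 expected counts, which are estimated fragments per gene, and the 10 genes took 0.536% and 0.594% of them. Of the 7 erythroid markers on the list, 7 were detected in both libraries, meaning a TPM of 1 or more, where TPM is a level scaled for transcript length and library total. Gata1 is among these markers, at a TPM of 1251 and 872. The cells carry a Gata1 construct, so its detection does not bear on cell type. Muscle markers reached a TPM of 1 in 0 of 7 cases and fibroblast markers in 0 of 6. Their summed TPM was 0.48 and 0.49 for muscle and 0.08 and 0.31 for fibroblasts, with Myh1, Dcn, Pdgfra and Thy1 at 0 counts. Of the macrophage markers, 1 of 5 was detected, Cd68 at a TPM of 1.73 and 1.90, with a summed TPM of 1.73 and 1.91 and Adgre1, Itgam and Lyz2 at 0 counts. Of the megakaryocyte and platelet markers, 2 of 6 were detected, with a summed TPM of 58.8 and 58.1, nearly all of it Gp1ba, and with Gp6 and Ppbp at 0 counts. What RNA of these cell types adds to the levels below was not tested.

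The 10 genes fell into a set of 7 expressed genes and a set of 3 that were nearly silent. Pfn1, Cfl1, Actb, Actg1, Tpm3, Capzb and Tpm1 met that detection threshold, and each had a TPM above 80 in both libraries. Tmsb10, Tmsb4x and Tpm4 did not reach 1 in both. Across 21474 protein-coding genes the same threshold was met by 38.3%. In bulk RNA, fewer cells expressing a gene and less RNA of it per cell cannot be told apart. The median TPM of the 10 genes was 132, against 0.03 over all protein-coding genes and 20.8 over the 8219 detected ones. The summed TPM of the 10 genes was 7348 in replicate 1 and 9565 in replicate 2, which averages 8456 ± 1568 (SD, n = 2).

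In order of mean TPM, Pfn1 came first, then Cfl1, Actb, Actg1, Tpm3, Capzb, Tpm1, Tmsb10, Tmsb4x and Tpm4. The ranges of the libraries overlapped between neighbours for Cfl1 and Actb, for Actg1 and Tpm3, and for Capzb and Tpm1, so those pairs were not ordered by these data. Tmsb4x and Tpm4, with 2 counts or fewer in each library, were not ordered either, and the authors' deposited intervals for them overlap. The TPM ranges of the other neighbours did not overlap. In replicate 2, however, the deposited intervals of Tmsb10 (0.358 to 1.34) and Tmsb4x (0.0495 to 0.396) did overlap. The place of Tpm3 rests on an uncertain level, as described below. Between Pfn1 and Tpm4 the levels spanned from the 17th most abundant protein-coding gene to rank 11471.

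**Figure D1:**
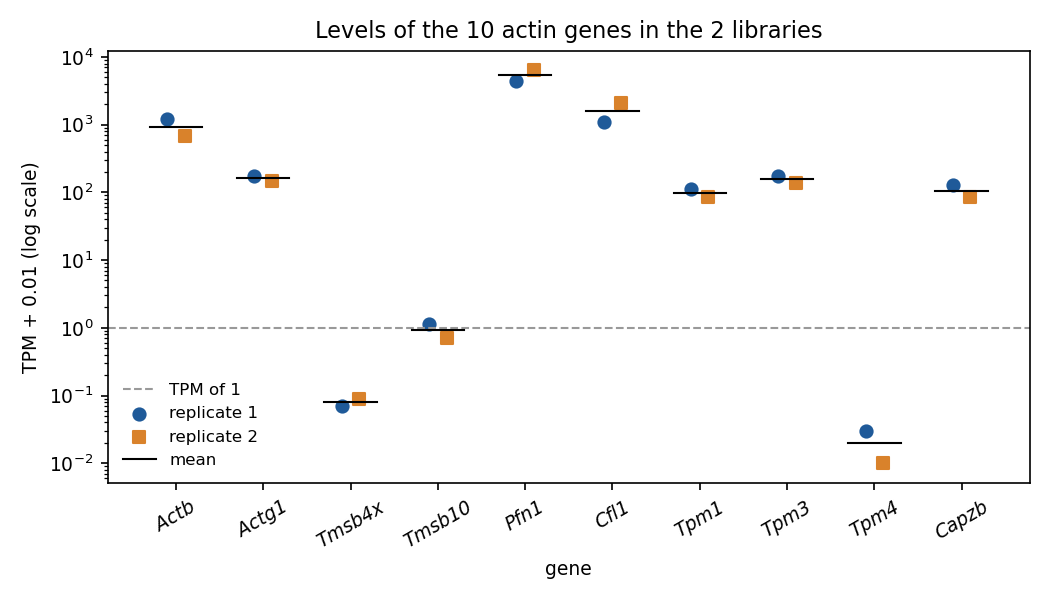
TPM of each of the 10 genes in the libraries of replicate 1 (circles) and replicate 2 (squares), on a log axis after adding 0.01, with the mean as a black bar and a dashed line at a TPM of 1. Pfn1 lies highest, at 4479 and 6331, and Tmsb4x and Tpm4 lie under 0.1 in both libraries.

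Actb and Actg1 encode the beta and gamma cytoplasmic actins, which differ in a few residues near the protein's start. Their coding sequences, in the transcripts Actb-201 and Actg1-204, are both 1128 bases long with the stop codon and differ at 128 of them, an identity of 88.7%. Of those differences, 120 fall on the last base of a codon. The first 60 coding bases are shown because they hold most of what sets the proteins apart. Bases that differ from the other gene are in capitals, the sequences run 5′ to 3′, and positions are on GRCm38 (chr5:142905627-142905686, minus strand, for Actb and chr11:120348032-120348091, minus strand, for Actg1).
Actb: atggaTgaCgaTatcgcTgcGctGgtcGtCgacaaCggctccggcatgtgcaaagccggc
Actg1: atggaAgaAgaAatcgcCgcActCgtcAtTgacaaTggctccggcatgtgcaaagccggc
In these 60 bases the genes differ at 9.

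Actb (ENSMUSG00000029580.10, chromosome 5, 142903115 to 142906754, minus strand) had a TPM of 1200 in replicate 1 and 677.5 in replicate 2, which averages 939 ± 369 (SD, n = 2). Actg1 (ENSMUSG00000062825.11, chromosome 11, 120345690 to 120348542, minus strand) had 172 and 149, which averages 160 ± 15.8. Actb was thus the higher of the pair in both libraries, by 6.99-fold in replicate 1 and 4.54-fold in replicate 2. It made up 87.5% and 81.9% of the summed TPM of the pair, which averages 84.7% ± 3.91 (SD, n = 2). These values sum coding and non-coding transcripts. The leading coding transcripts alone had a TPM of 663 (Actb-201) against 71.2 (Actg1-204) in replicate 1. In replicate 2 they had 94.3 against 106, so by them Actb was not the higher there. Actb ranked 149th among protein-coding genes and Actg1 ranked 926th.

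The muscle actins Acta1, Acta2, Actc1 and Actg2, which build the filaments of skeletal, smooth and cardiac muscle, were close to absent. Acta2, Actc1 and Actg2 had 0 counts in both libraries and Acta1 had 4 and 0. A count of 0 allows up to 3 counts at this depth.

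Actin genes have many processed copies in the mouse genome. Other genes were assigned to the member whose coding sequence they matched best, at an identity of at least 90% over at least 100 bases. That gave 8 genes for Actb and 13 for Actg1, with the members themselves left out. Of these 7 and 7 had rows in the files. For Actg1 the closest was the pseudogene Gm12715, at 99.6% identity over 1125 bases, with 1118 and 214 expected counts against 10300.3 and 7614 for Actg1 itself. For Actb the pseudogene Gm15725, at 93.2% identity, held 177 and 72.8 counts against 79330 and 21335. Lrrc58, a protein-coding gene whose transcript holds an Actb-like stretch, had 1912 and 2148 counts and was singled out after its values were seen. The split of reads between Actg1 and Gm12715 is uncertain.

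The transcripts to which the authors' estimates gave the actin reads differed strongly between the libraries. The full-length coding transcript Actb-201 held 55.3% of Actb TPM in replicate 1 and 13.9% in replicate 2. The short transcript Actb-206, annotated as a processed transcript with no coding sequence, held 43.2% and 83.7%. Of the 894 bases of Actb-206, 831 lie in exons of Actb-201, between its bases 30 and 860 of 1920, and 63 lie in no coding transcript of the gene. In expected counts Actb-201 went from 59293 to 5920 and Actb-206 from 19370 to 15028 between replicates 1 and 2. The short transcript therefore had a TPM of 518 and 567, nearly the same in both libraries, while Actb-201 had 663 and 94.3.

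For Actg1 the order was the other way round. The coding transcript Actg1-204 held 41.5% of Actg1 TPM in replicate 1 and 71.3% in replicate 2, and Actg1-207, a retained-intron transcript, held 37.2% and 18.6%. Actg1-207 shares 626 of its 864 bases with exons of Actg1-204. All its shared bases are the first 626 of that transcript. Transcripts not annotated as protein-coding made up 43.9% and 84.0% of Actb TPM and 50.7% and 23.3% of Actg1 TPM. Reads in shared bases cannot be given to 1 transcript by sequence alone, so these shares are the authors' estimates.

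**Figure D2:**
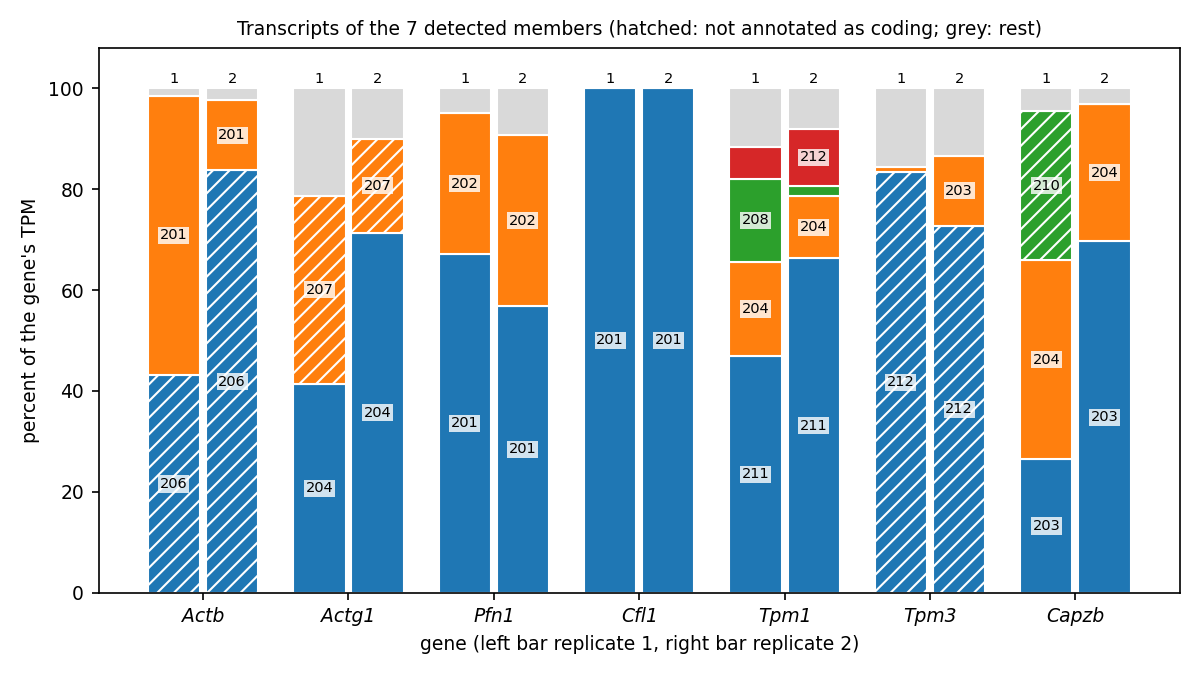
Percent of each gene's TPM held by its transcripts, for the 7 detected genes, with replicate 1 as the left bar and replicate 2 as the right bar. Colours and numbers mark transcripts with at least 10% in either library, hatching marks those not annotated as protein-coding, and grey is the rest: Actb-206 goes from 43.2% to 83.7%, while Cfl1 has 1 transcript row at 100%.

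Pfn1, profilin 1, loads actin monomers with ATP and delivers them to formins and other elongators. Pfn1 (ENSMUSG00000018293.4, chromosome 11, 70651850 to 70654644, minus strand) had a TPM of 4479 in replicate 1 and 6331 in replicate 2, which averages 5405 ± 1310 (SD, n = 2), the highest of the 10 genes in both libraries. It held 153059 and 149503 expected counts, or 0.257% and 0.335% of each library. Pfn1 TPM was 3.27 times the summed TPM of Actb and Actg1 in replicate 1 and 7.66 times in replicate 2, with non-coding transcripts included. The transcript Pfn1-201, which encodes 140 residues, held 67.1% and 56.8% of its TPM. The shorter coding transcript Pfn1-202 held 28.0% and 33.8%. No copy of Pfn1 matched its coding sequence at the identity used here. Its paralogue Pfn2 had a TPM of 0.06 and 0.08, and Pfn3 and Pfn4 had 0 counts in both libraries.

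Tmsb4x and Tmsb10 encode thymosins beta 4 and beta 10, very short proteins that bind actin monomers and keep them out of filaments. Their coding sequences are shown whole, without the stop codon, because both genes were nearly silent and their likeness bears on whether reads can be told apart. Bases that differ between the genes are in capitals (Tmsb4x, chrX:167207504-167208036, minus strand; Tmsb10, chr6:72957621-72958012, minus strand; GRCm38, spans with introns).
Tmsb4x: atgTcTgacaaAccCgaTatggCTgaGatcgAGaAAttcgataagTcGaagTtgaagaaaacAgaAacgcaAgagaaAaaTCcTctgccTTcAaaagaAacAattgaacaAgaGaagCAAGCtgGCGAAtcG
Tmsb10: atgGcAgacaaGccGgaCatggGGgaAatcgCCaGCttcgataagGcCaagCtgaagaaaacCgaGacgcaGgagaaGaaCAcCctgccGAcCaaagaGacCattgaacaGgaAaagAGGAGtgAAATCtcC
They differ at 40 of 132 bases.

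Tmsb4x (ENSMUSG00000049775.12, chromosome X, 167207093 to 167209315, minus strand) had 2 expected counts in replicate 1 and 2 in replicate 2, for a TPM of 0.06 and 0.08. They were given to Tmsb4x-201 in replicate 1 and to Tmsb4x-202 in replicate 2. The 95% exact Poisson interval of 2 counts is 0.242 to 7.22 counts, which covers counting error only. Tmsb10 (ENSMUSG00000079523.4, chromosome 6, 72957347 to 72958748, minus strand) had 23 and 10 counts, most of them in Tmsb10-203 (93.8% and 85.7% of TPM, with the rest in Tmsb10-204), for a TPM of 1.12 and 0.70, which averages 0.91 ± 0.30 (SD, n = 2). The authors' deposited posterior mean TPM was 0.16 and 0.21 for Tmsb4x and 1.09 and 0.82 for Tmsb10. At these counts no difference between the libraries was resolved for either gene. Their summed TPM was 1.18 and 0.78, so that Pfn1 stood 3795-fold and 8116-fold above the pair in the same libraries. Actb stood 1071-fold and 968-fold above Tmsb10.

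Copies of the thymosins held few or no counts. No gene had the Tmsb4x coding sequence as its best match, and of 8 copies of Tmsb10, the 5 with rows in the files had 0 expected counts in both libraries. Among them Gm9844, singled out after its values were seen and 98.5% identical over 132 bases, had posterior mean counts of 3.65 and 1.54. The relatives Tmsb15a, Tmsb15b1 and Tmsb15b2 also had 0 counts in both libraries. Tmsb4x made up 5.08% and 10.3% of the summed TPM of the pair, a share that rests on 2 counts in each library.

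Cfl1, cofilin 1, is the main non-muscle form of the proteins that sever aged filaments. Cfl1 (ENSMUSG00000056201.6, chromosome 19, 5490455 to 5495201, plus strand) had a TPM of 1083 in replicate 1 and 2098 in replicate 2, which averages 1590 ± 718 (SD, n = 2). It ranked 79th among protein-coding genes. On the TPM scale the libraries differed more for Cfl1 than for any other detected member, with an SD of 45.1% of the mean, whereas by scaled counts Actb differed more. Its relatives were far lower: Dstn, destrin, had a TPM of 20.6 and 7.46, and Cfl2, the muscle form, had 1.42 and 0.79. Cfl1 made up 98.0% and 99.6% of the summed TPM of these 3 genes. Against the summed actins, Cfl1 was 0.790-fold in replicate 1 and 2.54-fold in replicate 2, so the libraries disagreed on which was higher.

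Tpm1 and Tpm3 were the tropomyosin genes in use. Tpm1 (ENSMUSG00000032366.11, chromosome 9, 67022590 to 67049406, minus strand) had a TPM of 111 in replicate 1 and 85.1 in replicate 2, which averages 98.0 ± 18.3 (SD, n = 2). Tpm3 (ENSMUSG00000027940.14, chromosome 3, 90072649 to 90100902, plus strand) had 175 and 140, which averages 157 ± 25.3. Tpm4 (ENSMUSG00000031799.9, chromosome 8, 72134975 to 72153142, plus strand) had 2 counts in replicate 1, in Tpm4-201, and 0 in replicate 2, which again allows up to 3 counts. The 1 copy of Tpm4 had 0 counts. The summed TPM of Actb and Actg1 was 4.79 times that of Tpm1 and Tpm3 in replicate 1 and 3.68 times in replicate 2. Both sums include non-coding transcripts.

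Tropomyosin genes make long forms, which span more actin subunits and are typical of muscle, and short forms, which are common in other cells. Transcripts were sorted here by annotated coding length, at least 280 codons for long and 240 to 260 for short. Short forms made up 98.5% and 99.3% of Tpm1 TPM, and long forms 0.207% and 0%. The leading Tpm1 transcript, Tpm1-211 with 248 codons, held 46.9% and 66.3%. Tpm1-204, also with 248 codons, held 18.7% and 12.3%, and Tpm1-212 held 6.17% and 11.5%. Tpm1-208, with 245 codons, held 16.5% in replicate 1 and 1.99% in replicate 2.

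For Tpm3 the largest share, 83.4% and 72.8% of TPM, went to Tpm3-212, a retained-intron transcript of 655 bases with no coding sequence. Of its bases, 522 lie in exons of coding transcripts of the gene. Short coding forms held 12.6% and 23.1% of TPM, or 35.2% and 43.8% of expected counts, and the 1 long form with counts, Tpm3-205 with 284 codons, held 3.40% and 3.72%. Tpm3-203, with 247 codons, held 0.907% in replicate 1 and 13.8% in replicate 2. Over the tropomyosin genes together, long forms made up 2.16% and 2.31% of TPM, which averages 2.24% ± 0.10 (SD, n = 2), and short forms 45.9% and 52.0%.

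The level of Tpm3, and the shares of long and short forms above, are uncertain because of an intronless copy. Those shares leave the copy out, although it closely matches the short form Tpm3-201. Tpm3-rs7 (chromosome 14, 113314608 to 113316754, plus strand), annotated as protein-coding, matches the 747 coding bases of Tpm3-201, stop codon included, at all but 3. Counted from the A of the start codon, with the Tpm3 base first, these are G72A, G98A and G127A. Bases beyond the coding sequence were not compared. A stretch with G72A and G98A in capitals is shown because it is 1 place where a read can tell the genes apart, while G127A lies outside it (Tpm3, chr3:90079774-90079833, plus strand, and Tpm3-rs7, chr14:113314718-113314777, plus strand, on GRCm38).
Tpm3: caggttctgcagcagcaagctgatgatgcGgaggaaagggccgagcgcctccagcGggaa
Tpm3-rs7: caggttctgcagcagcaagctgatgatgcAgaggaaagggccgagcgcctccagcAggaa
The authors' estimates gave Tpm3-rs7 14874 expected counts in replicate 1 and 2091 in replicate 2, against 6262 and 3633 for Tpm3. The copy thus held 2.38 times as many counts as the gene in replicate 1 and 0.575 times in replicate 2. Its TPM was 151 and 30.2. Summed, the pair had a TPM of 326 and 170, which averages 248 ± 110 (SD, n = 2). Tpm3-rs7 was singled out after its values were seen.

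Capzb encodes the beta subunit of capping protein, which pairs with an alpha subunit from Capza1 or Capza2. Capzb (ENSMUSG00000028745.14, chromosome 4, 139192899 to 139291818, plus strand) had a TPM of 127 in replicate 1 and 84.4 in replicate 2, which averages 106 ± 30.4 (SD, n = 2). Capza1 had 12.5 and 11.2 and Capza2 had 15.2 and 7.15. Capzb was 4.60 times the sum of the alpha genes in replicate 1 and 4.59 times in replicate 2, a ratio of TPM that repeated closely. These levels sum all transcripts of each gene. Transcripts not annotated as protein-coding held 32.8% of Capzb TPM in replicate 1 and 2.99% in replicate 2. The close ratio thus does not hold for coding transcripts of Capzb alone, and it rests on the authors' split of reads. Of the alpha genes, Capza1 differed little between the libraries and Capza2 more, so the close match holds for their sum. The male germ cell form Capza3 had 0 counts in both libraries.

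The leading Capzb transcript changed between the libraries. Capzb-203, with 277 codons, held 26.5% of TPM in replicate 1 and 69.6% in replicate 2. Capzb-204, with 272 codons, held 39.5% and 27.3%. Capzb-210, annotated as a processed transcript, held 29.5% in replicate 1 and had 0 counts in replicate 2. Of its 1559 bases, 1503 lie in exons of Capzb-203, so the split between them is an estimate too.

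The log2 ratio of replicate 2 over replicate 1 shows how well each level repeated. It was computed from expected counts after TMM scaling for the 10234 genes whose count was 10 or more in each library, and 8 of the 10 members were among them. Tmsb4x and Tpm4 had too few counts. A difference of 2-fold or more was seen in 9.63% of all measured genes, 7.58% lower and 2.05% higher in replicate 2. That is 776 genes lower and 210 higher, against 1196 and 97 when scaled by library totals. Of the 8 members, 2 differed by 2-fold or more, 1 in each direction. With 8 genes that share is given as a description. The median log2 ratio was -0.10 for the members and -0.02 for all measured genes.

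Actb was the member lower in replicate 2, by a log2 ratio of -1.28 (95% exact counting interval -1.30 to -1.26), or 2.43-fold. Cfl1 was the member higher in replicate 2, with a log2 ratio of 1.06 (1.05 to 1.08), or 2.09-fold. Both intervals cover counting error alone and are far narrower than the spread between libraries. The ratio of TPM gave -0.82 for Actb and 0.95 for Cfl1. Under it 0 of the 8 members were past 2-fold, beside 1338 of all 10234 measured genes. TPM divides each transcript by its own length, and a larger part of the Actb counts went to the short Actb-206 in replicate 2.

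The other 6 members stayed within 2-fold. Pfn1 had a log2 ratio of 0.58 and Actg1 of 0.18. Tpm1 was at -0.02, Tpm3 at -0.17 and Capzb at -0.43. Tmsb10 was at -0.55 with a counting interval from -1.82 to 0.54, so its ratio was not resolved at 23 and 10 counts. The sign for Actg1 turned with the scaling, to -0.02 by library totals and -0.20 by TPM. Taking Tpm3 and Tpm3-rs7 together moved the Tpm3 ratio from -0.17 to -1.27. The SD between libraries had a median of 24.2% of the mean over the 7 detected members, from 9.88% for Actg1 to 45.1% for Cfl1, beside 17.6% over all detected protein-coding genes.

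**Figure D3:**
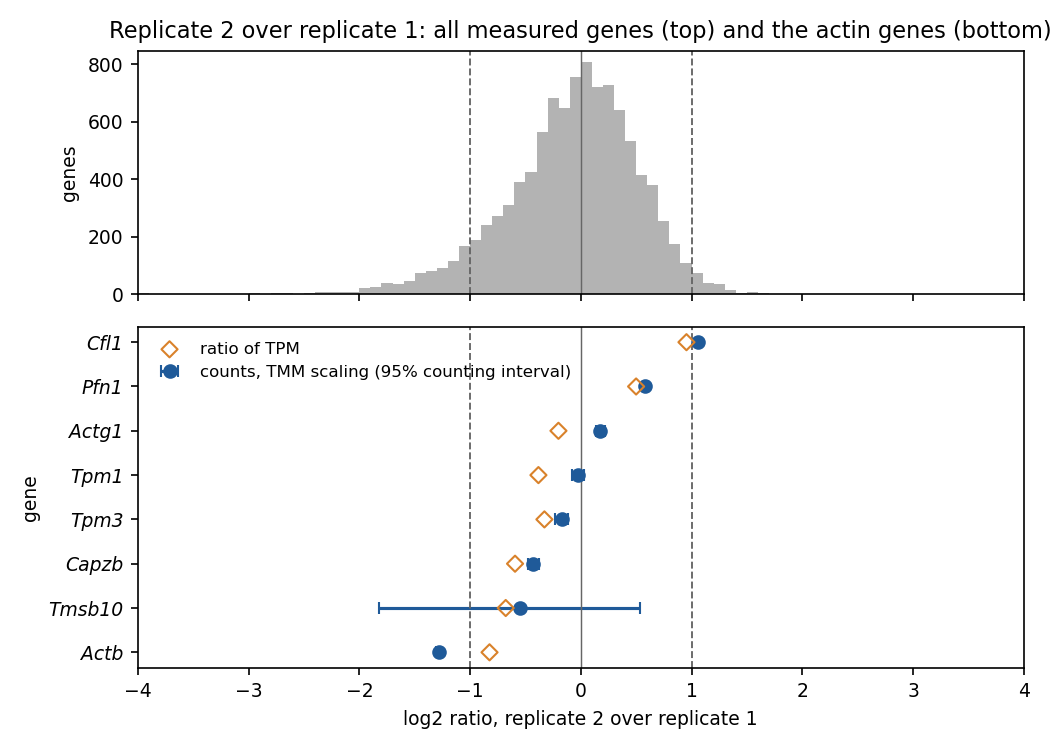
The top panel counts all measured genes by the log2 ratio of replicate 2 over replicate 1 (ratios beyond 4 drawn at the edge), and the bottom panel gives the 8 measured members, with filled circles and 95% counting intervals from TMM-scaled counts and open diamonds from TPM. Dashed lines mark 2-fold: Actb at -1.28 and Cfl1 at 1.06 lie outside them by counts, and by TPM 0 members do.

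Base composition moved with the ratio between the libraries. Over 8128 genes with 100 counts or more in each library, the log2 ratio and the GC content of the transcript with most counts had a Spearman rho of 0.25, which is across genes that share these libraries and are not independent. The median log2 ratio was -0.19 in the 1232 genes under 45% GC and 0.40 in the 549 genes at 60% GC or more. For Actb that transcript is Actb-201, at 51.1% GC, while Actb-206, which held more of the TPM on average, has 58.4%. For Actg1 it is Actg1-204, at 51.2%. Genes between 50% and 55% GC had a median log2 ratio of -0.04. Cfl1 had 53.6% GC and Pfn1 had 55.4%. The part of base composition in the members' ratios was not tested.

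**Figure D4:**
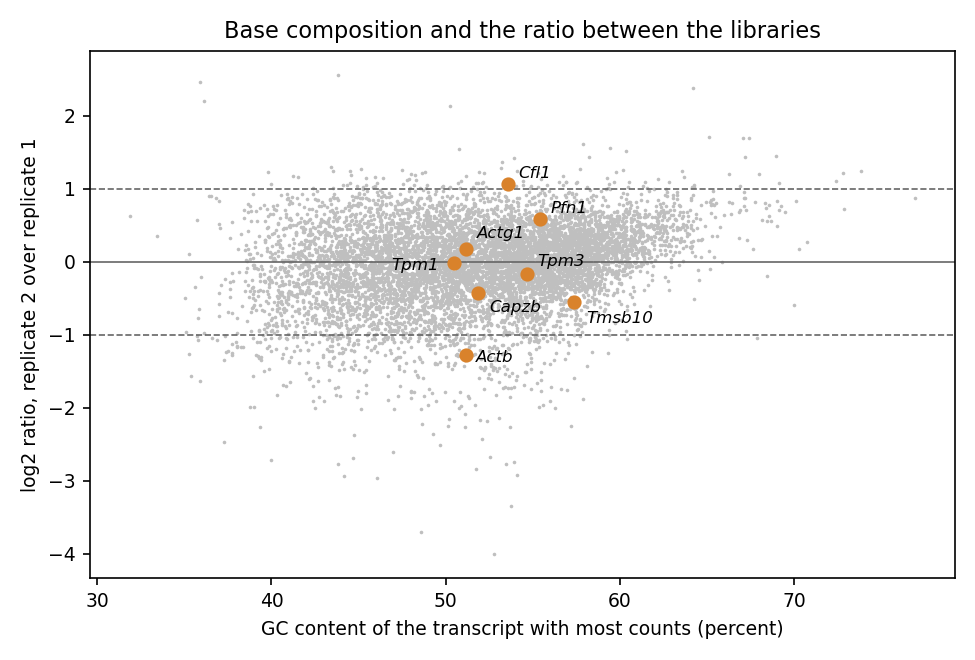
GC content of the transcript with most counts (percent) against the log2 ratio of replicate 2 over replicate 1 for 8128 genes with 100 counts or more in each library (grey, ratios beyond 4 drawn at the edge) and the 8 measured members (orange). Actb is placed at the GC content of Actb-201, 51.1%, with a log2 ratio of -1.28, and Cfl1 at 53.6% with 1.06.

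The wider actin machinery was examined in 10 lists holding 106 further genes. Of these, 61 were detected, 71 had counts enough for a ratio and 17 had 0 counts in both libraries. Beside this count and those of each list below stands the 38.3% of all protein-coding genes that were detected. Past 2-fold between the libraries were 6 of the 71, all lower in replicate 2, beside 9.63% of all measured genes. The number was 4 with DESeq2 size factors, 3 with upper quartile scaling and 8 by TPM, again all lower, so some of the 6 lie at the threshold. Over all 10234 measured genes those scalings gave 972, 932 and 1338, against 986. The median log2 ratio of the 71 was -0.01.

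The Arp2/3 complex, which starts branched filaments, was detected in 9 of 10 genes with a median TPM of 165. Arpc2 was the highest at 821 and 1118, then Arpc1b at 613 and 739, Actr3 at 215 and 332 and Arpc4 at 260 and 275. None of the 10 was past 2-fold between the libraries. Its activators were detected in 11 of 15 genes, led by the cortactin gene Cttn at 407 and 472. Was, the blood-cell nucleation factor, had 172 and 231, Wasf2 had 57.5 and 75.0 and Abi1 had 63.1 and 45.7.

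Formins, which build unbranched filaments from profilin-bound actin, were detected in 5 of 13 genes, close to the 38.3% of all protein-coding genes. Diaph1 had a TPM of 83.4 and 107, Daam1 of 50.8 and 85.0, Diaph3 of 24.4 and 20.5 and Inf2 of 14.4 and 18.8. Diaph2, Fhod3, Fmn1 and Fmnl2 had 0 counts in both libraries. Of the genes of filament turnover 14 of 18 were detected, led by the coronins Coro1b at 145 and 131 and Coro1c at 103 and 109. The cofilin phosphatase Ssh2 had 27.2 and 48.3 and the cofilin kinase Limk2 had 31.1 and 32.1. Cap2 had 0 counts.

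Cross-linkers and membrane linkers were detected in 7 of 13 genes. Tagln2, transgelin 2, had 994 and 404, Actn4, alpha-actinin 4, had 482 and 423, Tln1, talin 1, had 147 and 180 and Vcl, vinculin, had 22.2 and 13.6. Cnn3 and Pls1 had 0 counts. Of the 8 with a ratio, Tagln2 alone was past 2-fold, by a margin so narrow that DESeq2 size factors or upper quartile scaling put it within 2-fold.

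Non-muscle myosin II, the motor that pulls on these filaments, was detected in 4 of 7 genes. Of the 5 with a ratio, 3 were past 2-fold between the libraries, beside 9.63% of all measured genes. With 5 genes that share is a description. The light chain genes Myl6 (249 and 78.9), Myl12a (196 and 65.5) and Myl12b (36.8 and 17.5) were lower in replicate 2, with log2 ratios of -1.53, -1.47 and -1.01. Myl9, a further light chain gene, named after its values were seen, went the other way at 22 and 23 counts, with a log2 ratio of 0.67. The heavy chain gene Myh9 had 110 and 120 and a log2 ratio of 0.17. Myl12b fell within 2-fold under DESeq2 size factors and upper quartile scaling. The expected counts of Myl6, Myl12a and Myl12b were not whole numbers, and copies of these genes were not searched for.

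Genes of the red cell actin junction were detected in 6 of 9 cases, led by the adducins Add1 at 543 and 497 and Add2 at 78.7 and 60.4. Epb41, protein 4.1, had 60.8 and 56.1 and Dmtn, dematin, had 38.2 and 33.7. None of the 8 with a ratio was past 2-fold. Srf, a DNA-binding factor of many actin genes, had 80.7 and 104, and its cofactor Mrtfa, which binds actin monomers, had 19.4 and 23.0. Mrtfb had 0.61 and 0.25, and Myocd, the muscle cofactor, had 0 counts in both libraries.

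**Figure D5:**
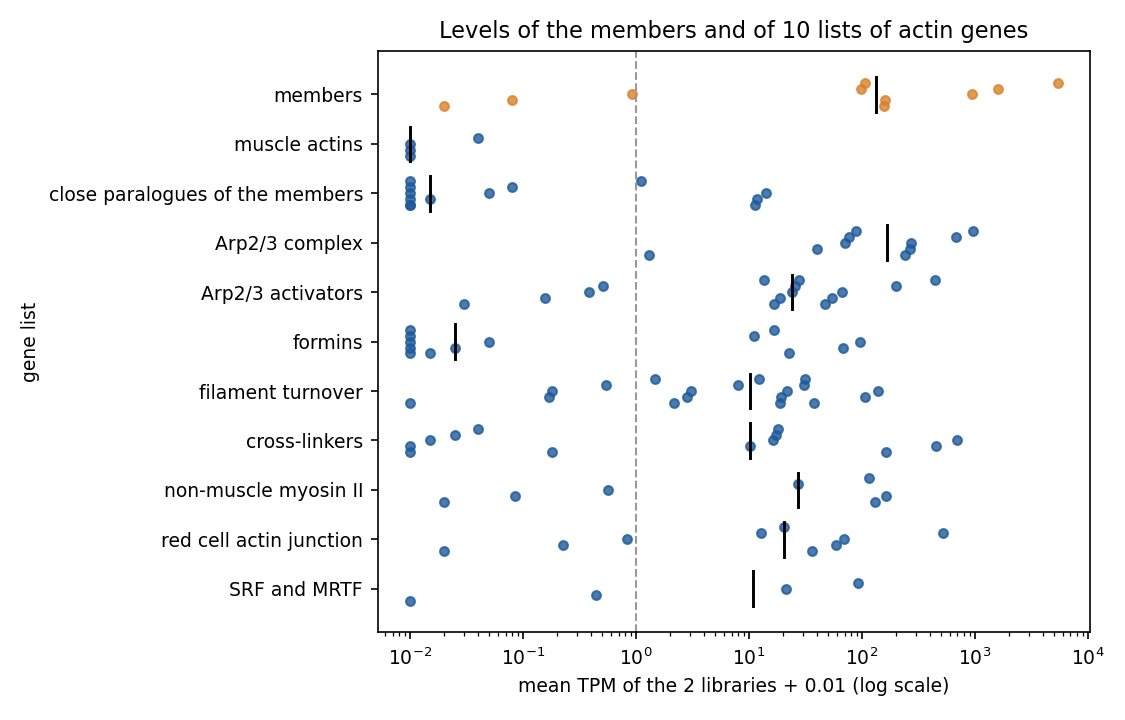
Mean TPM over the 2 libraries of each gene (dots, log axis after adding 0.01) in the 10 members (orange) and 10 lists of other actin genes (blue), with the list median as a black bar and a dashed line at a TPM of 1. The Arp2/3 complex has the highest median of the lists drawn, 165, above the members' 132, and the muscle actins lie at or near 0.

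Srf with Mrtfa binds a motif called the CArG box, CC and then a run of A or T and then GG. Promoter windows of 300 bases, 250 before to 50 after the start, came from RefSeq (GRCm38.p6) for the 9 members other than Actb, 12 windows in all. Actb was not searched. The CArG box was found in 1 of the 12, that of Actg1, and in 1.63% of 32851 windows of the same length. It is a palindrome in form, so both strands give the same matches. The Actg1 window around it is shown, as the 1 member window that holds it, with the motif in capitals (chr11:120348551-120348610, minus strand, GRCm38.p6). The motif ends 80 bases before the start.
Actg1 promoter: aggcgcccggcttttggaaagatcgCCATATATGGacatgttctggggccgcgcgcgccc
The motif AGATAA, which GATA factors bind, was searched on both strands and found in 1 of the 12 windows, one of Tpm3, and in 11.2% of all windows. GGGCGG, bound by SP1, was in 11 of the 12 and in 35.7% of all windows. CCAAT was in 3 of the 12 and in 37.4% of all. These are matches of letters, not measured sites. Matches of different motifs may overlap and were counted separately.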

How the data were processed

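PolyA RNA-seq of 2 libraries of 1 group was analysed. Per the notes deposited with the files, values came from transcriptome alignments on mm10 with GENCODE M4. Which aligner and quantifier were used is not given in the sources used here. Deposited by the authors were expected counts (estimated, not normalized), TPM (scaled by effective length to 1 fixed total per library), posterior means with interval bounds, and percent values of transcripts within genes, which were not used: shares were computed from transcript TPM. Gene names and positions came from GENCODE M21 on GRCm38, the same assembly.

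Log2 ratios used expected counts with a prior count of 0.5 and TMM-scaled library sizes (edgeR 4.0.16; DESeq2 1.42.0 as an alternative); counts were rounded for the scaling and for counting intervals. Copies were found with blastn 2.17.0. The rule for names was all members, the 4 highest genes of each list with those at 0 counts, transcripts holding at least 10% of a gene, and matching pseudogenes with at least 100 counts. Marker lists are instead given by counts and sums, with few names. Members and lists were chosen with earlier results of these data known. The ratio script was checked on simulated data. Errors are SDs over 2 libraries. Intervals cover counting error only.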

Additional observations from a re-analysis of the deposited data

How the results depend on the processing

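Detection of 7 members held with posterior mean TPM and at a threshold of TPM 10, and the summed TPM and the Actb share moved by less than the SD under the other TPM estimates, count units and TPM base tried. Coding transcripts alone were not among these settings. By the leading coding transcripts, Actb was not the higher of the pair in replicate 2, at a TPM of 94.3 against 106 for Actg1. With each library left out in turn, which with 2 libraries cannot leave the SD and so tests nothing, the summed TPM was 7348 to 9565, the Actb share 81.9% to 87.5%, the Tmsb4x share 5.08% to 10.3% and the long tropomyosin share 2.16% to 2.31%. The Tmsb4x share was 16.6% by posterior mean TPM and 12.3% by expected counts, since it rests on a few counts. Among long and short forms alone, chosen after seeing the data, the long share was 4.38%. Members past 2-fold numbered 1 by library totals and 0 by TPM, against 2. Over all 10234 measured genes the numbers were 1293 and 1338, against 986. Genes past 2-fold numbered 4410 with no filter on low counts and 568 at 100 counts in both libraries, against 986. Each count under a different filter comes from a different number of genes, with 986 being 9.63% of 10234, so these counts do not compare as shares. Under library totals the calls were 92.5% lower in replicate 2, against 78.7%, and the median of all genes moved from -0.02 to -0.21. Of 57 alternative ratios of single members, 18 moved by at least 0.1 (log2) or across 2-fold. No paired analysis was possible because there was only 1 group.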
